A study of Mus musculus with 12 samples.

Results

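The junctions described here joined a broken end at 5′Sμ to Sε, the switch region that lies upstream of the Cε constant exons and that B cells use to switch to IgE, in splenic B cells stimulated with αCD40/IL4. They were chosen by position alone, as every junction on chromosome 12 between 114505001 and 114521000, a stretch of 16 kb in the coordinates of the AJ851868/mm9 hybrid genome. They numbered 3491 of the 53012 junctions in all 12 libraries of the study, and 3006 of them came from WT and 485 from 3′IgH CBEs-deleted cells. In CSR-HTGTS-seq a primer placed in 5′Sμ, the bait, copies genomic DNA across the joint and into the partner sequence, called the prey, so that each junction has a position, an orientation and a joint of known structure. WT and 3′IgH CBEs-deleted mice were chimeras made by RAG2-deficient blastocyst complementation, in which mature B cells descend from the injected ES cells, and in the deleted line all CTCF-binding elements (CBEs) downstream of the IgH 3′ regulatory region had been removed. The B cells of both genotypes were AID-proficient, were enriched from spleen by CD43-negative selection and were cultured for 96 h with an antibody to CD40 plus IL4, which imitates T-cell help and directs switching to IgG1 and IgE. Each genotype had 3 libraries, which the study describes as independent repeats without stating which animals they came from, so the spread reported is that between libraries. The sample records give 10% fetal bovine serum in the medium and the paper's methods give a higher share.

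Class switch recombination begins when activation-induced cytidine deaminase (AID) deaminates cytosines in transcribed S regions, most readily in short motifs of the DGYW/WRCH type, of which the palindrome AGCT is the best known. The lesions are processed to double-strand breaks, and end joining fuses an Sμ break to a break in a downstream S region. Fusion in the deletional orientation removes the intervening DNA and allows a new constant region to be expressed, while inversional joining turns the intervening DNA around and does not. Joints are either direct or are made over a few bases that both ends share, called microhomology, or carry inserted bases that neither end explains.

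The sequence of Sε was read from the matched bases of the prey reads, which covered all 3000 positions of the 3 kb that held most junctions. Stretches of it were placed in mm9 by exact match. IgH is transcribed from the minus strand, so each sequence is given in the coding orientation, 5′ to 3′. The following lies around the single position with the most junctions, on mm9 chr12:114514486-114514566, minus strand, and AGCT copies are in capitals. The position itself is the last T of the capitals, base 41.

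Sε around its most used position: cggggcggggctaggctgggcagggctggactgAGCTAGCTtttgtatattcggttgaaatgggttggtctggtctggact

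The 100 bases with the most WT junctions lie just upstream of it, on mm9 chr12:114514536-114514635, minus strand. They show the short G-rich repeats of Sε, with 4 AGCT copies in capitals.

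Most used stretch of Sε: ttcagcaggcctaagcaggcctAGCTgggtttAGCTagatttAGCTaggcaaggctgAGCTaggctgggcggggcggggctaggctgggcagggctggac

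The next 4 sequences show what a joint looks like in each class, with Sμ on the left and Sε on the right and 25 bases of each. In the direct joint the capitals are the last Sμ base and the first Sε base, in the microhomology joints they are the bases that both sides share, and in the insertion they are the base that neither side explains. All 4 are deletional joints from WT cells, and the direct joint and the insertion end at the same Sε position.

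Direct joint: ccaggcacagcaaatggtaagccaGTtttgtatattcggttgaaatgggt

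Microhomology of 1 base: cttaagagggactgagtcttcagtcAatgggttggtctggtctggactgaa

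Microhomology of 10 bases, the longest found: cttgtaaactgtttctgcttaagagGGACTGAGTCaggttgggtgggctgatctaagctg

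Insertion of 1 base: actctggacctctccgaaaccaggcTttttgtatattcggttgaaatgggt

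The WT libraries held 961, 1023 and 1022 Sε junctions, among 3476, 3830 and 3499 junctions in the 300-kb IgH window of chromosome 12 from 114400001 to 114700000. The 3′IgH CBEs-deleted libraries held 183, 183 and 119, among 1961, 2329 and 1267. Values for deleted cells therefore rest on far fewer junctions, and deleted replicate 3 was the shallowest library. Replicate 1 of both genotypes shared a sequencing run, as did replicate 2, while WT replicate 3 and deleted replicate 3 came from separate runs. Deleted replicate 3 also had the shortest reads into Sε, with a median prey of 83 bases against 107 to 122 in the other 5 libraries. The αCD40/IL4 lists hold only part of the Sγ1 junctions that the study counted, so a share of the window is larger here than over all of them, and shares within Sε are not touched by this. Intervals in brackets are Wilson 95% confidence intervals and, like the floor of 3 junctions for an empty class, cover counting error only. A difference between genotypes was called where their libraries did not overlap, because a two-sided exact permutation test of 3 libraries against 3 cannot give a p below 0.1. Over the 9 measures of Sε tested this way, 3 were called and 6 overlapped, and the adjusted p was 0.3 for each that was called. Those called were the Sε share of the window, the median position and the inversional share. The Sε share of the window was 27.6, 26.7 and 29.2% in the WT libraries and 9.33, 7.86 and 9.39% in the deleted libraries.

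The decrease in Sε junctions of 3′IgH CBEs-deleted cells was seen in each part of Sε that held most of its junctions, and on average the bin on the Sμ side kept 39.2% of its WT share, against 24.4% on the Cε side. In WT cells 97.1% of the 3006 junctions fell within 3 kb, from 1.07 to 4.07 kb upstream of the first Cε exon (mm9 chr12:114511187-114511457, minus strand, the first of 4 exons of the gene annotated as Gm900, a synonym of Ighe). In deleted cells 96.3% of the 485 fell there. Outside this core lay 88 WT junctions, of which 82 were on the Cε side, and 18 from deleted cells, of which 12 were on that side. Of the 16 bins of 1 kb, 9 held fewer than 5 junctions over the 6 libraries and were not tested, and 4 of those held none.

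The central bin of the core (114514001 to 114515000) held 12.9, 12.9 and 12.9% of window junctions in the WT libraries and 4.33, 2.92 and 4.81% in the deleted libraries. The bin on its Cε side (114513001 to 114514000) held 6.88, 6.37 and 7.52% in WT and 1.78, 2.02 and 1.26% in deleted libraries. The bin on its Sμ side (114515001 to 114516000) held 7.05, 6.58 and 8.06% in WT and 2.75, 2.66 and 3.08% in deleted libraries. In all 3 bins each deleted library lay below each WT library. Beside the core, the bin from 114512001 to 114513000 held 0.571% ± 0.102 (SD, n = 3) in WT and 0.115% ± 0.0378 in deleted cells, where each library had only 2 junctions.

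Going upstream, from the Cε side to the Sμ side, the deleted libraries kept on average 20.2, 24.4, 31.2 and 39.2% of the WT share in these 4 bins, an order that was not itself tested. Each bin was called lower in the deleted cells by Fisher's exact test on pooled junctions with Benjamini-Hochberg adjustment and libraries that did not overlap (adjusted p = 5.51e-06, 2.28e-51, 5.57e-85 and 6.01e-33). These p-values compare pooled junctions, not replicates, and cover counting error only, and over libraries the exact permutation test gave p = 0.1 for each of the 4 bins. Of the 7 Sε bins tested 4 were called lower and 0 higher (0 higher also at an unadjusted p under 0.05 by Fisher's exact test), while over the 48 tested bins of the window 45.8% were called, 16.7% lower and 29.2% higher. The other 3 Sε bins held 5, 12 and 6 WT junctions and 1, 3 and 2 from deleted cells.

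**Figure D1:**
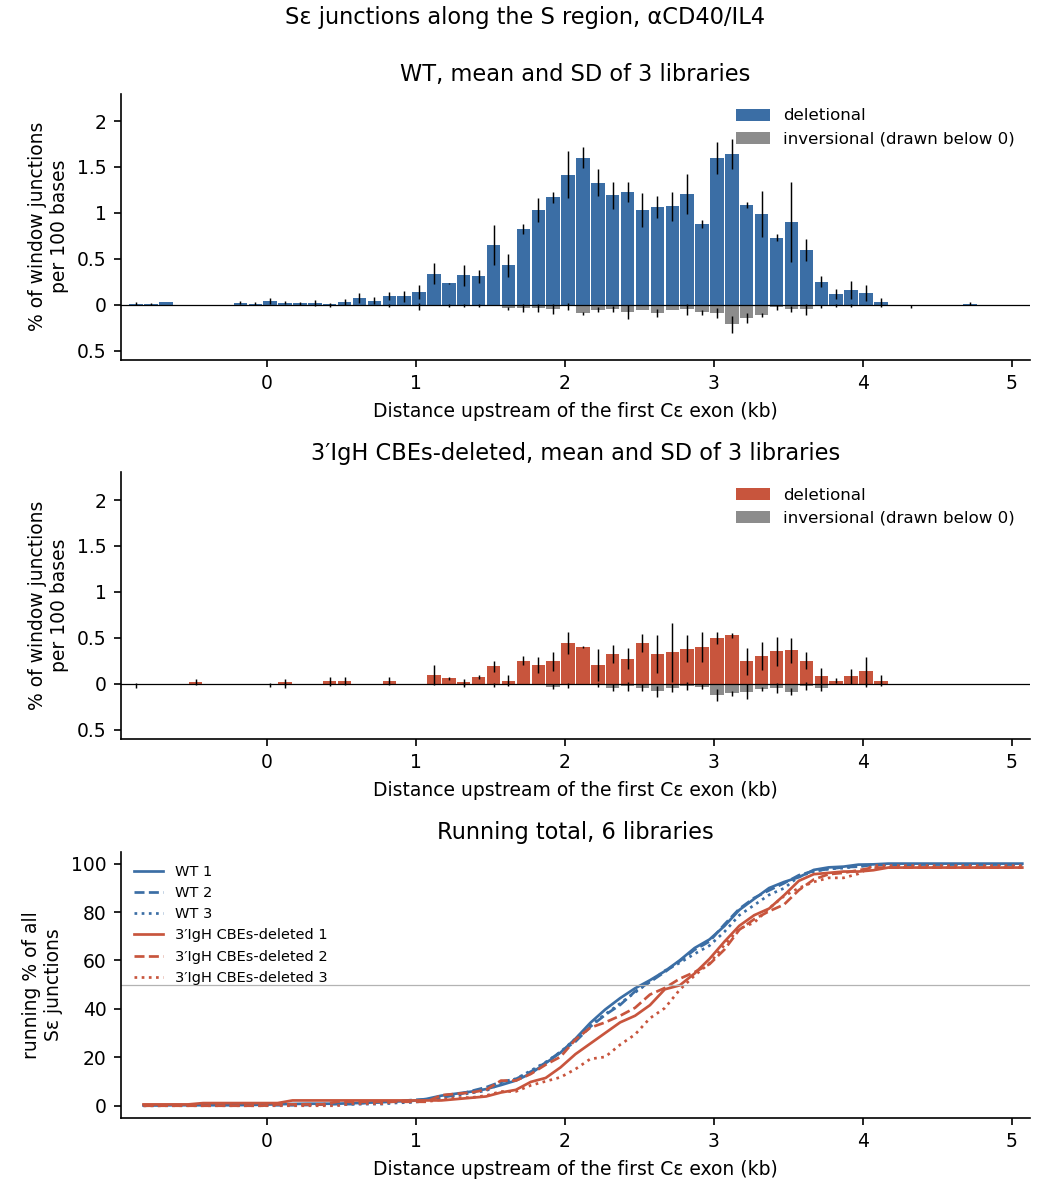
Junctions along Sε in stretches of 100 bases, plotted against distance upstream of the first Cε exon in kb. The upper panels give the percentage of window junctions per stretch in WT and deleted cells (bars, mean of 3 libraries with SD, inversional joints drawn below 0), and the lowest panel the running percentage of all Sε junctions in each of the 6 libraries from the left edge of the plot, so that junctions outside the plot are missing from it. Junctions lie between about 1.07 and 4.07 kb in both genotypes, and the running totals of the 3 deleted libraries cross 50% to the right of those of the 3 WT libraries.

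Within Sε itself the junctions of deleted cells lay slightly further upstream, towards Sμ. The median junction was 2518, 2526 and 2526.5 bases upstream of the first Cε exon in the WT libraries and 2747, 2711 and 2778 bases upstream in the deleted libraries. The WT medians lay close together, and every deleted median was above all of them. The means differed by 222 bases, for which exact permutation gave p = 0.1, and by 229 and 185 bases within the runs of replicates 1 and 2. Among deletional junctions only the difference was 186 bases, without overlap of libraries. Among preys of at least 100 bases the difference was 276 bases, but the libraries of the genotypes overlapped.

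The spread of positions was much the same in both genotypes, with the central 50% of junctions spanning 1053 to 1099 bases in WT libraries and 854 to 1148 bases in deleted libraries. The shift came with a larger part of the junctions in the bin on the Sμ side. It held 25.5, 24.6 and 27.6% of the Sε junctions of WT libraries and 29.5, 33.9 and 32.8% of those of deleted libraries, a mean of 25.9% ± 1.52 against 32.1% ± 2.27 (Fisher's exact test on pooled junctions, adjusted p = 0.0469, and exact permutation over libraries, p = 0.1). This was the only bin called of the 7 tested on the share of Sε junctions (14.3%), and it was lost with bins of 500 bases, with each position counted once, or without WT replicate 1, WT replicate 2, deleted replicate 2 or deleted replicate 3. Without deleted replicate 2 a bin was called lower instead. The bin on the Cε side held 24.8% ± 0.942 in WT against 19.4% ± 6.12 in deleted cells, where the libraries overlapped, and the central bin 46.3% ± 2.13 and 45.0% ± 7.17.

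In Sγ1, the other S region that this stimulation targets, the median junction also lay upstream in all 3 deleted libraries, by 2894 bases on average. In Sμ the medians overlapped and their means differed by 2.83 bases. These S regions differ in length and the Sγ1 list is partial, so the sizes of these shifts are not compared with that of Sε.

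Inversional joining to Sε was rare in WT cells and made up a larger part of the junctions in 3′IgH CBEs-deleted cells. WT libraries held 48 of 961, 64 of 1023 and 59 of 1022 inversional junctions, which is 4.99% (3.79 to 6.56), 6.26% (4.93 to 7.91) and 5.77% (4.502 to 7.375). Deleted libraries held 22 of 183, 21 of 183 and 14 of 119, which is 12.02% (8.07 to 17.5), 11.5% (7.63 to 16.9) and 11.8% (7.14 to 18.8). Each deleted library was above each WT library, and the means stood in a ratio of 2.07. The differences within the runs of replicates 1 and 2 were 7.03 and 5.22 percentage points. Pooled over libraries, 171 of 3006 WT and 57 of 485 deleted junctions were inversional (Fisher's exact test, adjusted p = 1.88e-05 over 5 measures). That p compares pooled junctions and covers counting error only, and over libraries the exact permutation test gave p = 0.1.

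Because fewer Sε junctions were recovered from deleted cells, the larger part was not a larger number. Raw counts of inversional junctions were lower in the deleted libraries, at 14 to 22 per library against 48 to 64. Those libraries were also shallower, with 1267 to 2329 window junctions against 3476 to 3830. The raw counts therefore do not compare how often such joints formed. Pooled over WT libraries, 171 inversional and 2835 deletional Sε junctions stood among 10805 window junctions. In deleted cells 57 and 428 stood among 5557. Relative to the window both orientations were thus lower in deleted cells, and the deletional one was lower by more.

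The inversional part was not even along Sε. Going upstream through the 3 core bins it was 1.26, 3.803 and 11.02% in WT replicate 1, 4.51, 6.26 and 7.94% in WT replicate 2, and 3.04, 6.21 and 7.09% in WT replicate 3. In deleted cells it was 5.71, 9.41 and 16.7% in replicate 1, 6.38, 11.8 and 14.5% in replicate 2, and 0, 11.5 and 17.9% in replicate 3. It rose from bin to bin towards Sμ in 6 of 6 libraries, an order seen after the values and given as a description. The bin on the Cε side of deleted replicate 3 held only 16 junctions, so its value of 0 allows a share of up to 18.8%.

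Deleted cells exceeded WT in the central bin, at 10.9% ± 1.28 (SD, n = 3) against 5.42% ± 1.40, and in the Sμ-side bin, at 16.4% ± 1.73 against 8.68% ± 2.07, neither with any overlap of libraries (exact permutation, p = 0.1 for each). In the Cε-side bin the values were 4.03% ± 3.51 and 2.94% ± 1.63, and the libraries overlapped (exact p = 0.7). The difference in inversional share was thus present within the central and Sμ-side bins as well as over the whole of Sε, but was not resolved in the Cε-side bin. The median inversional junction lay upstream of the median deletional junction in every library, by pooled medians of 114514808 against 114514441 in WT and 114514945 against 114514627.5 in deleted cells.

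**Figure D2:**
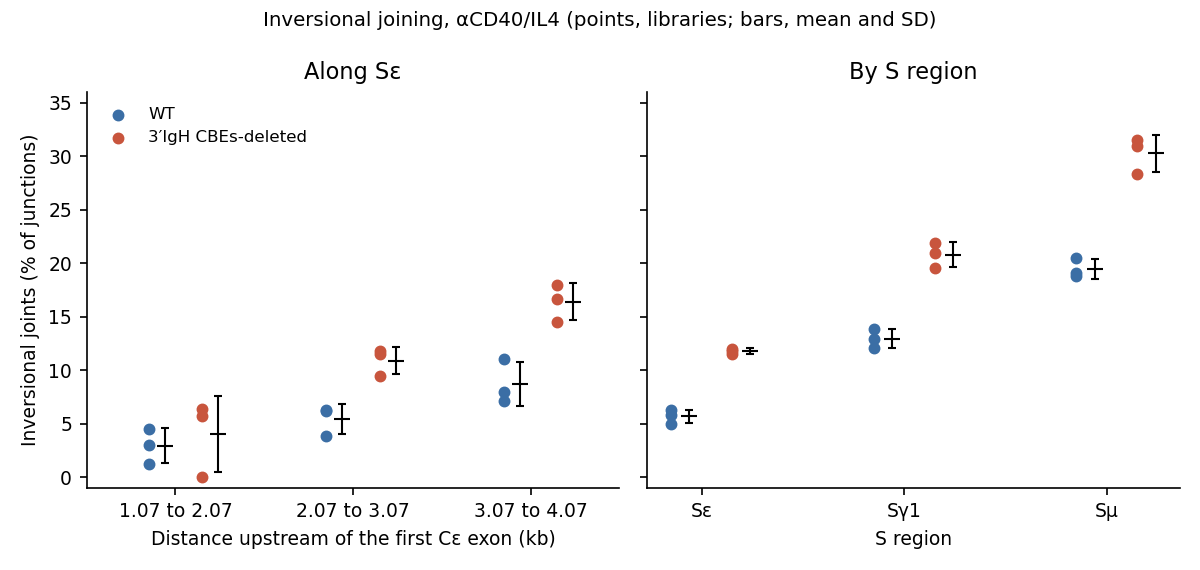
Inversional junctions as a percentage of all junctions, by distance upstream of the first Cε exon in kb (left) and for Sε, Sγ1 and Sμ (right), with a point for each library and bars for mean and SD of 3. The share rises to the right along Sε in both genotypes, and in the right panel each deleted library lies above each WT library in all 3 S regions.

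Sε had the lowest inversional share of the 3 S regions compared. It was below Sγ1 in 6 of 6 libraries, with a difference of -7.26 ± 1.29 percentage points in WT and -9.03 ± 1.33 in deleted cells, and below Sμ in 6 of 6, with differences of -13.8 ± 1.11 and -18.5 ± 1.92 points (two-sided exact sign-flip test, p = 0.03125, the smallest possible, adjusted p = 0.0729 and 0.109 over 7 measures each). The deleted share exceeded WT in all 3 regions without overlap, from 12.9 to 20.8% in Sγ1 and from 19.5 to 30.3% in Sμ. The Sγ1 values rest on the partial list, with 5308 junctions over the 6 libraries. Whether that list holds both orientations in their full proportion was not tested. The gap between Sε and Sγ1 overlapped between genotypes (exact permutation p = 0.3). The rise of the inversional share in Sε was therefore not shown to differ from that in Sγ1. The difference from Sμ changed by -4.71 points in the deleted cells without overlap (exact permutation p = 0.1, adjusted p = 0.35).

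No difference in the structure of the joints was resolved between the genotypes. Direct joints made up 26.01, 25.81 and 26.91% of Sε junctions in the WT libraries and 25.7, 26.2 and 26.9% in the deleted libraries, so the 2 sets were interleaved. Microhomology joints made up 54.4, 55.7 and 55.6% in WT and 60.1, 49.2 and 52.9% in deleted libraries, and joints with insertions 19.6, 18.5 and 17.5% against 14.2, 24.6 and 20.2%. The deleted libraries spread on both sides of WT, with intervals as wide as 42.0 to 56.4% for microhomology in replicate 2. The differences of the means were 0.0248 percentage points for direct joints, -1.16 for microhomology and 1.14 for insertions (exact permutation p = 1, 0.7 and 0.7). None of these 3 was called, and the libraries do not resolve a difference of a few points.

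Joints became rarer with each further shared base, while single inserted bases stood well above longer insertions. Joints with 1 shared base made up 22.2% ± 0.536 of WT and 20.6% ± 3.497 of deleted Sε junctions, those with 2 shared bases 14.8% ± 1.23 and 15.0% ± 2.37, and those with 3 shared bases 9.04% ± 0.324 and 9.93% ± 2.49. Insertion of 1 base was the commonest insertion, at 9.07% ± 0.888 and 10.7% ± 3.15. Of the 12 length classes plotted, the class of 4 shared bases and that of 5 or more inserted bases did not overlap, at 5.32% ± 0.755 against 4.03% ± 0.583 and 2.06% ± 0.0981 against 2.66% ± 0.560. They rest on 20 and 13 junctions from deleted cells and were not tested singly. The mean microhomology was 2.19, 2.23 and 2.20 bases in WT and 2.38, 2.37 and 2.10 bases in deleted libraries, and the longest was 10 bases in both genotypes.

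**Figure D3:**
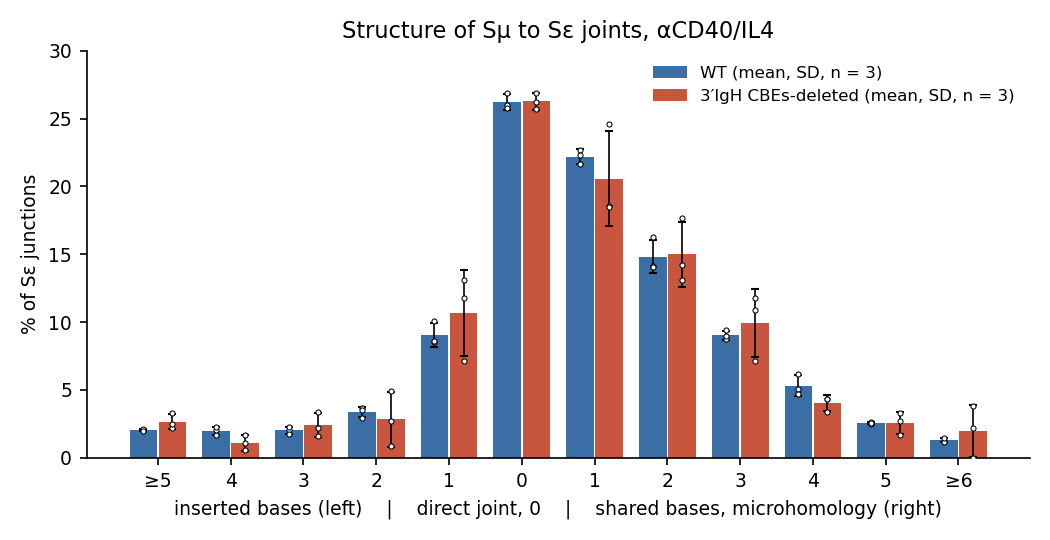
Structure of the joints between Sμ and Sε as a percentage of Sε junctions, by number of inserted bases (left), direct joints (0) and number of shared bases (right), for WT and deleted cells (bars, mean and SD of 3 libraries, points, libraries). The highest bar in both genotypes is the direct joint at about 26.2%, and the deleted libraries scatter around the WT bars.

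The shared and inserted bases differed in composition. Among the 768 joints with 1 shared base the base was G in 277, T in 175, A in 169 and C in 147, in the coding orientation. Among 180 joints with 4 shared bases GCTG was the commonest in 48 and AGCT next in 21. Among 90 with 5 it was GGCTG in 13 and AGCTG in 12. Each of these sequences occurs in the most used stretch of Sε printed above, and the repeats of Sμ were not examined. Of the 323 single inserted bases, 110 were A, 109 T, 56 G and 48 C. These bases were read from joints of all 6 libraries together and were not compared between genotypes.

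Against Sγ1 in the same libraries, Sε had more direct joints in 6 of 6, by 2.65 ± 1.70 percentage points in WT and 3.38 ± 2.24 in deleted cells, and a shorter mean microhomology in 6 of 6, with differences of -0.220 ± 0.0195 and -0.266 ± 0.210 bases (two-sided exact sign-flip test, p = 0.03125, adjusted p = 0.0729 for both). Against Sμ it had more direct joints in 6 of 6 as well, by 1.10 ± 0.756 and 3.88 ± 1.10 points, a gap that was wider in the deleted cells without overlap (exact permutation p = 0.1, adjusted p = 0.35). In Sμ the direct share itself was 25.1% ± 1.31 in WT and 22.4% ± 0.657 in deleted cells, whereas in Sε it was 26.2% ± 0.585 and 26.3% ± 0.605. The Sγ1 values rest on the partial list.

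The Sμ side of the joints did not separate the genotypes. The median bait, the stretch of Sμ from the primer to the joint, was 70, 71 and 68 bases in WT and 69, 68 and 61 bases in deleted libraries. The Sμ position most often joined to Sε in WT cells, 114669195, took 124 of 3006 junctions, and in deleted cells it took 16 of 485, next to 17 at the most used position, 114669182.

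Sε junctions gathered at AGCT. The 3-kb core holds 91 copies, which cover 12.1% of its positions, and 90% of its stretches of 100 bases hold at least 1. The motif is its own reverse complement, so it reads the same on both strands. The first Sε base of the joint lay in an AGCT for 21.12, 20.04 and 22.41% of junctions in WT libraries, where 12.4 to 12.6% of positions in the same bins are in the motif, and for 17.5, 21.3 and 16.8% in deleted libraries, where 11.9 to 12.5% are. All 6 libraries lay above the cover of the motif. The genotypes overlapped, with means of 21.2% ± 1.19 and 18.5% ± 2.43 (exact permutation p = 0.3).

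The base within the motif was not used evenly. Of the 610 deletional WT junctions in an AGCT, 283 had the T as the first Sε base, 123 the A, 104 the C and 100 the G. That is, the T was first in 48.0, 49.0 and 42.7% of such junctions in the WT libraries and in 46.4, 54.3 and 52.6% in the deleted libraries, from 19 to 35 junctions each, and the genotypes overlapped. The count at the T was more than at any other place within 10 bases of the motif, as the profile around it shows. Where bases are shared the alignment gives them to Sε, but in deletional direct joints, where there is no such choice, the T was first in 91 of 172 WT junctions and in 15 of 22 from deleted cells. Inversional junctions run the other way from the break, and A pairs with T on the opposite strand. Of those in an AGCT, 13 of 27 in WT and 4 of 9 in deleted cells had the A first. In the profile around the motif, however, the A was not a peak. It held 12 inversional WT junctions there, against 15 at 5 bases before it and 14 at 5 bases after it. In deleted cells it held 4, against 6 at 5 bases before it.

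**Figure D4:**
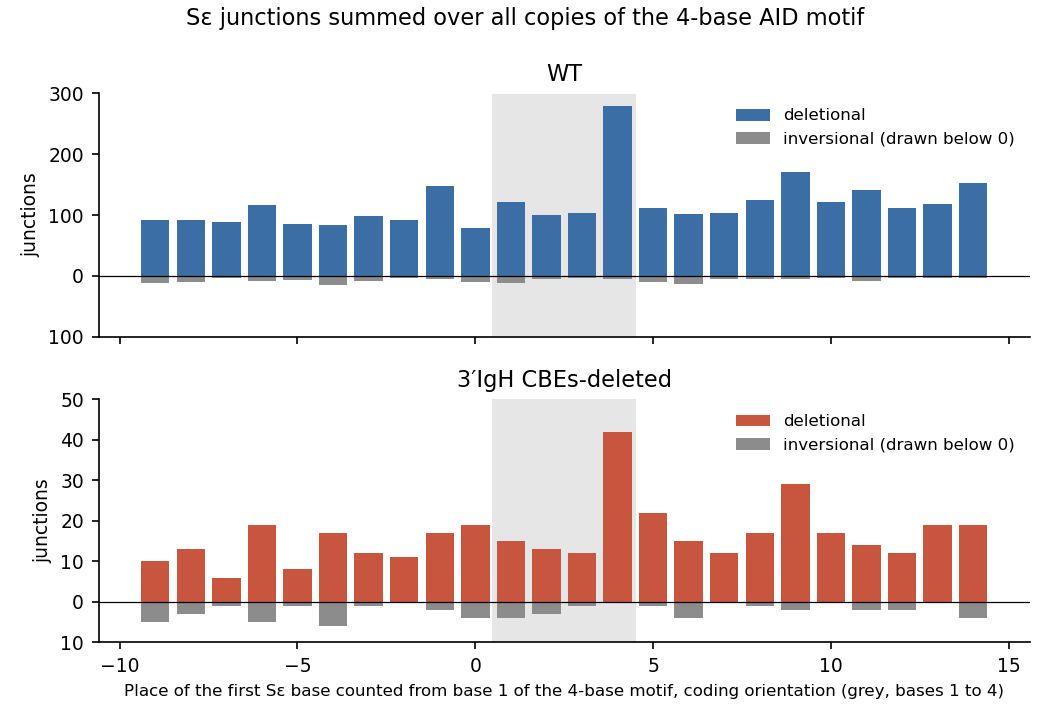
Sε junctions summed over all 91 AGCT copies of the core, by the place of the first Sε base counted from the first base of the motif in the coding orientation, with deletional junctions above 0 and inversional below, for WT (top) and deleted cells (bottom, with another scale). The highest bar in both panels is base 4 of the motif, the T, with 280 WT and 42 deleted deletional junctions.

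Stretches with more AGCT held more junctions. Over the 30 stretches of 100 bases of the core, the number of AGCT copies ran from 0 to 8 with a median of 3, and the number of WT junctions from 14 to 200 with a median of 110. The 3 stretches without a copy held a mean of 24.3 WT junctions, and the 9 with at least 4 a mean of 151. Those without a copy began at 114513101, 114515601 and 114515801, near the edges of the core. The outermost stretches, at 114513001 and 114515901, held only 36 and 14 with 3 and 2 copies. Nearer the centre, those at 114514401 and 114514801 held 117 and 104 with 1 copy each. Copy number and place in the core were not separated. Across these stretches Pearson's r was 0.708 and Spearman's rho 0.790 for WT junctions, and 0.541 and 0.519 for the fewer junctions of deleted cells. Neighbouring stretches share repeats and libraries, and G and C made up 35 to 63% of a stretch, so this is a description and carries no p. The same count over the wider DGYW/WRCH motif was less telling, because that motif covers 50.8% of the core. Of the Sε junctions 1776 of 3006 in WT and 267 of 485 in deleted cells began in it.

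**Figure D5:**
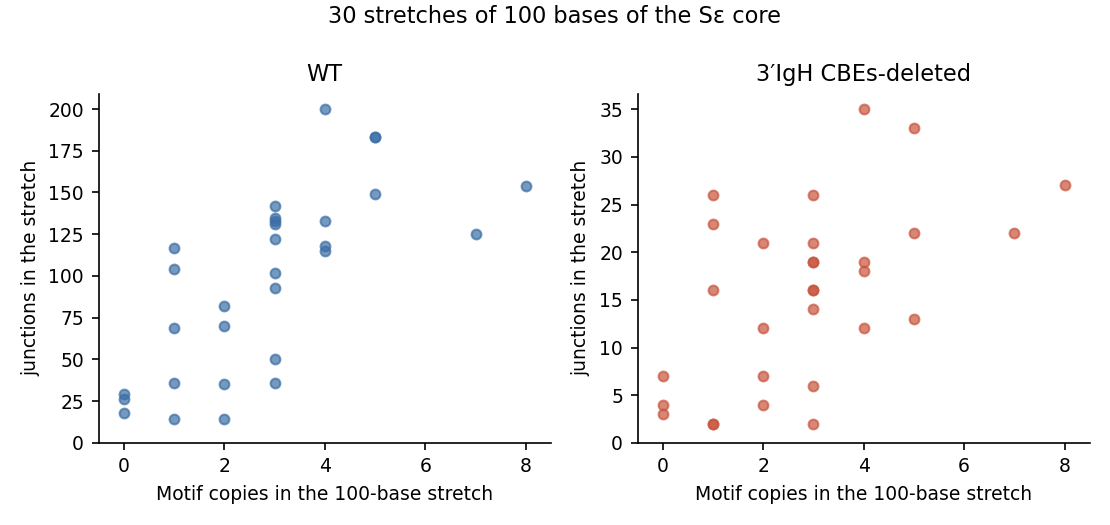
Number of junctions (vertical) against number of AGCT copies (horizontal) in each of the 30 stretches of 100 bases of the Sε core, for WT and deleted cells on separate scales. The 3 stretches with no copy lie at the bottom of the WT panel, and the highest WT point, with 200 junctions, has 4 copies.

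Single positions were used repeatedly but none dominated. The 3491 junctions fell on 1900 distinct positions counted with orientation, of which 1202 were seen in 1 library, 698 in at least 2 and 0 in all 6. Of the 425 positions used in deleted cells 256 were also used in WT, which is 60.2% of the deleted and 14.8% of the 1731 WT positions. The most used, 114514991, whose sequence is printed above, had 6, 10 and 6 junctions in WT libraries and 1, 2 and 0 in deleted libraries. It took 0.732% of WT and 0.619% of deleted Sε junctions. These 25 junctions had 21 different Sμ ends and 25 different read ends. The other 4 of the 5 most used positions, 114514664, 114513912, 114514459 and 114514175, had 12, 11, 11 and 10 junctions. All 5 lay in an AGCT. Joints with the same Sμ end, Sε position and orientation were found in both libraries of a pair at 0.552 to 3.70% of the joints of the smaller library.

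With the other stimulation of the study, LPS/αIgD-dextran, which does not direct switching to IgE, Sε was almost empty. The WT libraries held 0, 0 and 2 Sε junctions among 14970 in the window, and the deleted libraries 3, 0 and 2 among 7881.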

How the data were processed

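Junctions were measured by CSR-HTGTS-seq from a 5′Sμ bait in 12 libraries, of which the 6 from αCD40/IL4-stimulated B cells are the subject here. Paired reads were run by the authors through their published pipeline, with AJ851868/mm9 as the hybrid reference, and they removed duplicates and did not pool replicates. The submitters' processing notes name Bowtie2 and mm9. The values in the lists the authors deposited are positions, orientation and aligned read positions per junction, with no count, score or normalization. Genotype, stimulation and replicate number were taken from the sample labels. The members, measures and motifs were chosen with earlier results of these data known.

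A junction was deletional where the prey aligned to the minus strand. Bait end minus prey start plus 1 within the read gave shared bases above 0, a direct joint at 0 and inserted bases below 0. The Sε sequence was rebuilt from read bases that matched the reference, found in mm9 by exact unique match, and exons were read from the mm9 annotation. Coordinates without a build named are those of the hybrid, which differ from mm9 here.

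Libraries of the genotypes were compared unpaired by two-sided exact permutation, S regions of 1 library by exact sign flips over 6 libraries, and bins of 1 kb with at least 5 junctions by Fisher's exact test on pooled junctions with Benjamini-Hochberg adjustment at 0.05 and no overlap of libraries. Tested on simulated data from 20 simulations at these depths, the bin test recovered 40 of 40 bins lowered 3-fold and called 0 of 960 unchanged bins lower. Only bins with many junctions were lowered, and the simulated libraries differed by counting error alone. Sparse bins, false calls of higher bins and further spread between libraries were therefore not covered. The bins named are those of Sε with the most WT junctions and those called on the share of Sε, and the positions named are the 5 with the most junctions. Alternatives covered the denominator, boundaries, orientation, repeated positions, prey length, microhomology and insertion limits, motif and margin, bin width, the replicate block and leaving out each library. Depth ranged from 1267 to 3830 window junctions per library. Tests ran in Python 3.11.15 (scipy 1.17.1, numpy 2.4.6), tables in pandas 2.3.3 and plots in matplotlib 3.10.9. GRO-seq and 3C-HTGTS were not analysed here.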

Additional observations from a re-analysis of the deposited data

How the results depend on the processing

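The Sε share of the window and the inversional share kept their direction and their separation of libraries under all alternatives run, 11 and 12 in number, with differences of -27.1 to -17.0 and 5.39 to 6.37 percentage points. The upstream shift of the median kept its direction under all 13, from 186 to 276 bases, and lost its separation at 276.3 bases among preys of at least 100 bases. Some alternatives were chosen after seeing the data. For the median they were replicates 1 and 2 only and the core. For the inversional share they were replicates 1 and 2 only and baits of at most 100 bases. None of these ended the call it was run on. The others were replicates 1 and 2 only for the microhomology share (-0.426 points) and direct joints only for the AGCT share (-3.03 points), both with overlap.

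The direct joint difference was near 0 and changed sign with deletional junctions only (-1.07 points), with each position once (-0.183) and when a library was left out (-0.287 to 0.357). The microhomology difference was -6.72 points without overlap among preys of at least 100 bases, 0.484 with at least 2 shared bases, and -4.18 to 1.29 when a library was left out, without overlap after deleted replicate 1 and with the other sign after deleted replicate 2. Insertions moved likewise, to 3.64 points among the longer preys and between -1.33 and 3.86 when a library was left out. Mean microhomology length ranged from 0.0243 to 0.168 bases, without overlap once deleted replicate 3 was left out. The AGCT difference was 0.112 points with the next base counted and -4.04 to -1.79 when a library was left out, without overlap after deleted replicate 2. The median bait difference ranged from -5.17 to -1.17 bases, without overlap after WT replicate 3. The cause of these moves was not tested.

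Window bins called numbered 35 with bins of 500 bases and 20 to 24 when a library was left out. Bins called on the share of Sε numbered 2 with bins of 2 kb, 0 with bins of 500 bases or each position once, and 0 to 1 when a library was left out, where the bin called without deleted replicate 2 was lower, not higher.

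Same-numbered libraries deviated from their group means with correlations of -0.0739, 0.138 and 0.224 over 48 bins, so the numbers were not taken as pairs. With the replicate block (exact sign-flip test, smallest p 0.25) the bait difference of -3.67 bases had the same sign in every pair, and the inversional difference stayed at 6.08 points, the median shift at 222 bases and the bins called at 22 and 1. Between 119 and 183 Sε junctions per deleted library limit what can be resolved for joint classes.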

Other observations

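Insertions of at least 12 bases were found in 26 of the 651 Sε joints with inserted bases, 21 in WT and 5 in deleted cells, and the longest held 30 bases. Of these, 25 shared a run of 12 bases with sequence of the IgH window found in the lists.

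Mismatches to the reference in the Sε prey made up 0.605% ± 0.129 (SD, n = 3) of bases 1 to 25 from the joint in WT against 0.513% ± 0.162 in deleted cells, where the libraries overlapped. In bases 26 to 50 they made up 0.381% ± 0.104 and 0.184% ± 0.0751, with no overlap of libraries (exact permutation, p = 0.1), and in bases 51 to 100 they made up 0.583% ± 0.154 and 0.316% ± 0.129, with overlap. Mismatches hold sequencing and PCR errors as well as mutations, replicates 3 were in separate runs, and the part of each was not tested.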
